A study of Mus musculus with 8 samples.

Results

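The epithelial-mesenchymal transition (EMT) was examined at 10 genes in ATAC-seq peak lists of mouse cutaneous squamous cell carcinoma (SCC) cells that differed in focal adhesion kinase (FAK). ATAC-seq marks open chromatin with a transposase that inserts sequencing adapters into accessible DNA. The genes were picked by name, 10 of 55304 annotated genes: the transcription factors *Zeb1*, *Zeb2*, *Snai1*, *Snai2*, *Twist1*, *Twist2* and *Prrx1*, the cadherins *Cdh1* and *Cdh2*, and the intermediate filament gene *Vim*. The choice was made with earlier results of these data known. Merging peaks across the libraries wherever they shared at least 1 bp gave 69399 regions. Of these, 47 overlapped the body of an EMT gene or the 20 kb upstream of it (mm10 build). A region is called in a library when the deposited list of that library holds a peak there. A region without a call may be accessible at a level that the caller did not accept.

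There were 4 lines with 2 libraries each, which the study describes as biological replicates. All derive from SCC cells of K14CreER FAKflox/flox FVB mice, whose tumors were induced with DMBA and TPA and are driven by Ha-Ras. In these mice the keratin 14 promoter, active in basal keratinocytes, drives a tamoxifen-dependent Cre recombinase. FAK was deleted in culture with 4-hydroxytamoxifen, and the FAK-/- cells have had no FAK put back. The other lines were made from a single FAK-/- clone by retroviral expression and hygromycin selection, so all lines carry the deletion. FAK-WT cells re-express wild-type FAK, FAK-nls cells carry FAK impaired in nuclear localization (R177A, R178A, R190A, R191A, R216A and R218A), and FAK-kd cells carry kinase-deficient FAK (K454R). Each comparison set FAK-WT against one of the other lines, and all 3 comparisons share the FAK-WT libraries. The comparisons address which regions depend on FAK, on its nuclear localization or on its kinase activity. Peak lists do not check the deletion itself.

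During EMT, epithelial cells lose their junctions and gain a migratory, mesenchymal form. Zinc-finger factors (Snai1, Snai2, Zeb1, Zeb2) bind E-box motifs and repress junction genes, above all *Cdh1*, which encodes E-cadherin. The bHLH factors Twist1 and Twist2 and the homeodomain factor Prrx1 also promote the mesenchymal program, in which N-cadherin (*Cdh2*) and vimentin (*Vim*) are made. AP-1 motifs, bound by dimers of Jun and Fos proteins, are frequent in the distal accessible regions of many cell types.

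The lists held between 24383 peaks (FAK-nls replicate 1) and 53703 peaks (FAK-WT replicate 1) on the 21 chromosomes used. The number of EMT gene regions called broadly followed the length of the list. It was 37 and 28 in FAK-WT replicates 1 and 2, 31 and 22 in FAK-/-, 18 and 18 in FAK-nls, and 23 and 36 in FAK-kd. The EMT gene regions took 0.0629 to 0.0789% of the regions called in a library. When each list was limited to its 24383 strongest peaks by −log10 p, the range over libraries narrowed to between 15 regions (FAK-/- replicate 1 and FAK-kd replicate 2) and 21 regions (FAK-kd replicate 1). The part of read depth in these differences was not tested.

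**Figure D1:**
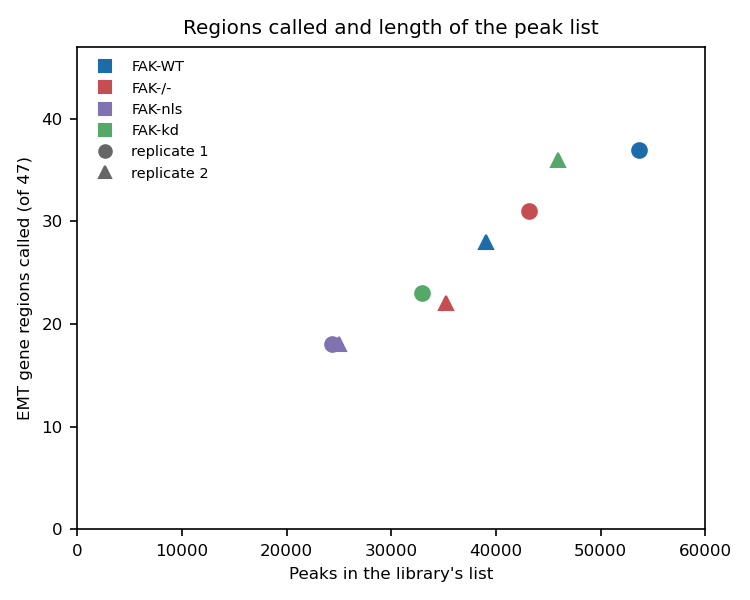
Number of the 47 EMT gene regions called (vertical axis) against the number of peaks in the list (horizontal axis), 1 point for each library, colored by line with the replicate as the shape. FAK-WT replicate 1, with 53703 peaks, has 37 regions called, and both FAK-nls libraries, with 24383 and 24959 peaks, have 18.

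Of the 47 regions, 13 (27.7%) were called in all 8 libraries, against 25.8% of all merged regions. Another 13 (27.7%) were called in 1 library, against 28.6% of all merged regions. Of those single calls, FAK-WT replicate 1 and FAK-kd replicate 2, the libraries with the longest lists, held 5 each. Both shares of the EMT genes were near those of the whole data set. By position, 27 regions lay in introns, 13 overlapped an exon of the gene, and 7 lay upstream. *Cdh2* had 11 regions, *Cdh1* 7, *Zeb1*, *Zeb2* and *Prrx1* 6 each, *Twist2* and *Vim* 3 each, *Snai1* and *Snai2* 2 each, and *Twist1* 1. The windows hold no other protein-coding gene. They do hold noncoding genes, among them *Zeb2os*, which starts beside the inner *Zeb2* start.

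The sequences below are shown because the calls at these places carry the contrasts described later: a start open in every library, an inner *Zeb2* start and an upstream *Zeb2* region without a call in FAK-nls, the strongest distal regions of *Twist2* and *Prrx1*, and a *Cdh1* intron region called in FAK-WT alone. Promoters are RefSeq windows of 300 bases, from 250 before to 50 after the start (GRCm38.p6), and 6 of the 10 genes matched that table. The other sequences are the central 300 bases of the merged region on the plus strand of the same assembly. Capitals mark the E-box CAGGTG or CACCTG, or the AP-1 motif TGAGTCA or TGACTCA, so that each motif is read on both strands. The 2 motifs do not overlap each other in these sequences. The *Snai1* promoter lies at chr2:167537945-167538244 (plus strand), and the inner *Zeb2* promoter at chr2:45110228-45110527 (minus strand). The upstream *Zeb2* sequence is chr2:45126425-45126724, the *Twist2* intron chr1:91816589-91816888, and the *Prrx1* intron chr1:163273215-163273514. The *Cdh1* intron is chr8:106614753-106615052.
Snai1 promoter: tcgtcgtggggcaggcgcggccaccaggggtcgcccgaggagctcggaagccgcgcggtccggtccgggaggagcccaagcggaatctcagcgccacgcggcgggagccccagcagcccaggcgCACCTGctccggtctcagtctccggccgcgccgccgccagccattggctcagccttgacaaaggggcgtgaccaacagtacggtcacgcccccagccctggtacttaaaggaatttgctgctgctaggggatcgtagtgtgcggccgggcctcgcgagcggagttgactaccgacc
Zeb2 inner promoter: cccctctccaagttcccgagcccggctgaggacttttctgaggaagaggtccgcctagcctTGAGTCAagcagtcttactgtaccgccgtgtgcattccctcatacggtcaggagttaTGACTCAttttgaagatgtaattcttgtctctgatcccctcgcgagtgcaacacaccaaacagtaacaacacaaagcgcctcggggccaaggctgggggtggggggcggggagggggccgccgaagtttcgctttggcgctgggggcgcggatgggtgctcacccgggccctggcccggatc
Zeb2 upstream region: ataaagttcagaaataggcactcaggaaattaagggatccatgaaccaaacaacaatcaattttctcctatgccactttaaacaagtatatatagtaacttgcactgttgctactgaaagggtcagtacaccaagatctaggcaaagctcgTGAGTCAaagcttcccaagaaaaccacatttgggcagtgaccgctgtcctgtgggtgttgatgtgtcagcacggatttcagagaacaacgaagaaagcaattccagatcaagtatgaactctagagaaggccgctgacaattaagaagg
Twist2 intron region: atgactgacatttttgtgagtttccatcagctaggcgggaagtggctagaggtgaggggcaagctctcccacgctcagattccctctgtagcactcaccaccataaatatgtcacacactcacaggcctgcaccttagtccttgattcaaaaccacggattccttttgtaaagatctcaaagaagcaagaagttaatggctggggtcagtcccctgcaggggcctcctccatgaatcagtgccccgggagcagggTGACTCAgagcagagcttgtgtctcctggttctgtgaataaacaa
Prrx1 intron region: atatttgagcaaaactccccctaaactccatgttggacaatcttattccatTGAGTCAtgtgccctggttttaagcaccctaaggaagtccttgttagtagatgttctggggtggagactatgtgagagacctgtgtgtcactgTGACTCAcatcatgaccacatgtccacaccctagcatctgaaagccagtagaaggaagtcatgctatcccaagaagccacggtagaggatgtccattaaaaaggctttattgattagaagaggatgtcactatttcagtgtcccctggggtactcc
Cdh1 intron region called in FAK-WT alone: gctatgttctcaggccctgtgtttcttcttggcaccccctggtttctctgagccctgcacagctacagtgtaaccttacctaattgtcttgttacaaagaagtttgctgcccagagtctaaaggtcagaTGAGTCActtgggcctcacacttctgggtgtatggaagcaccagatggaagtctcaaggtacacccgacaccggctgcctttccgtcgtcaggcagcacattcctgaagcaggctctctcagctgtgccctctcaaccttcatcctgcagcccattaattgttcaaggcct

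The *Snai1* promoter holds 1 E-box and no AP-1 motif, whereas the inner *Zeb2* promoter holds 2 AP-1 motifs and no E-box. Among all 32851 RefSeq promoters of the same length, 20.2% hold the E-box and 5.20% the AP-1 motif. The RefSeq promoters of *Vim*, *Twist1*, *Twist2* and *Prrx1* hold neither, and nor do the other RefSeq promoters of *Zeb2*. In windows of 300 bases centered on the 47 EMT gene regions, 8 (17.0%) hold the E-box and 11 (23.4%) the AP-1 motif. The window runs past the ends of 5 shorter regions, and 2 of the 8 E-box matches lie at least partly in that outer stretch. The shares over all 69399 regions, in windows set the same way, are 16.5% and 28.7%. Away from annotated starts, 10 of 34 EMT gene regions (29.4%) hold the AP-1 motif, against 34.2% of 52727 such regions. The upstream *Zeb2* region, the *Twist2* intron region and the *Cdh1* intron region hold 1 AP-1 motif each, and the *Prrx1* region holds 2. A match is a description of the letters and not a measured binding site.

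Accessibility at the starts separated 9 of the genes from *Cdh1*. A peak within 1 kb of an annotated start was called in all 8 libraries for 6 of the 10 genes (*Snai1*, *Snai2*, *Twist1*, *Twist2*, *Cdh2* and *Vim*), against 41.0% of 21911 protein-coding genes. *Zeb1*, *Zeb2* and *Prrx1* had such a peak in 5 or 6 libraries, and *Cdh1* in none. Over all protein-coding genes, 41.4% had no start called in any library. In the 1 kb around its 5′ end, *Cdh1* has a GC content of 61.2% and a ratio of observed to expected CpG of 0.716, which makes it CpG-rich by the limits used here (at least 50% and 0.6). Of 9726 CpG-rich 5′ ends, 68.6% were called in all 8 libraries and 14.0% in none. *Cdh1* is thus among the smaller share of CpG-rich ends without a call, and the lists do not show how far below the threshold it lay.

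Fold enrichment, the authors' ratio of the pileup over a peak to the local background of the same library, was read for the strongest peak of each start region. *Snai1*, which represses E-cadherin, had a start region at chr2:167537818-167539238 that covers the 5′ end and an exon with untranslated sequence. Its fold enrichment was 5.80 and 4.80 in FAK-WT, 5.31 and 4.13 in FAK-/-, 4.06 and 5.25 in FAK-nls, and 4.81 and 5.73 in FAK-kd. The 4 lines overlapped, and its peak was in the strongest 40.4% of every list, from the top 8.95% in FAK-/- replicate 1. *Snai2*, the related repressor known as Slug, had 6.15 and 5.61 in FAK-WT, 5.13 and 4.54 in FAK-/-, 3.96 and 5.63 in FAK-nls, and 5.17 and 6.65 in FAK-kd (chr16:14705168-14706350). Both FAK-WT values lay above both FAK-/- values. The FAK-nls pair overlapped both of these pairs, and the FAK-kd pair overlapped the FAK-WT pair but lay above the FAK-/- pair. *Twist1* had 5.12 and 4.56 in FAK-WT, 3.85 and 3.84 in FAK-/-, 4.78 and 4.40 in FAK-nls, and 4.05 and 4.24 in FAK-kd (chr12:33956879-33958799). Fold enrichment is averaged over the peak, and the FAK-nls peaks were 619 and 655 bp long, against 1154 to 1733 bp in the other lines. The FAK-WT pair lay above the FAK-/- and FAK-kd pairs and overlapped the FAK-nls pair. After normalization, pairs apart were also common over all regions, as counted below, and such pairs can differ from those of the deposited values.

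The start of *Twist2* (chr1:91800102-91802740) had fold enrichments of 3.85 and 3.45 in FAK-WT, 4.57 and 3.69 in FAK-/-, 3.88 and 3.51 in FAK-nls, and 3.52 and 3.93 in FAK-kd. The lines overlapped. The start of *Vim* (chr2:13573276-13574645), the vimentin gene, had 4.12 and 3.80 in FAK-WT, 3.93 and 3.86 in FAK-/-, 3.73 and 3.56 in FAK-nls, and 3.54 and 3.85 in FAK-kd. This was the narrowest range among the start regions called in every library, from 3.54 to 4.12. Its peak was 1063 to 1364 bp long, and its rank ran from the top 14.7% in FAK-WT replicate 1 to the top 62.0% in FAK-nls replicate 2.

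*Cdh2*, the N-cadherin gene, had a start region at chr18:16807812-16809857 with fold enrichments of 3.67 and 3.44 in FAK-WT, 3.23 and 3.51 in FAK-/-, 3.76 and 4.26 in FAK-nls, and 3.45 and 4.26 in FAK-kd. Both FAK-nls values lay above both FAK-WT values as deposited. Fold enrichment is averaged over the peak, and the FAK-nls peaks were shorter, 696 and 784 bp against 1523 and 1292 bp in FAK-WT. Their pileups were lower, 8.73 and 8.96 against 19.53 and 13.14. The part of peak length in this difference was not tested. The start of *Zeb1* (chr18:5591343-5593393), a repressor of epithelial genes, was called in 6 libraries and in neither FAK-nls library. It had 3.18 and 4.58 in FAK-WT, 3.27 and 3.60 in FAK-/-, and 3.23 and 3.19 in FAK-kd. Outside FAK-WT replicate 2, where it ranked in the top 42.4%, it was a weak peak, between the top 74.7% and 88.9%. The region also lies within 1 kb of starts of the noncoding genes *Gm10125* and *Gm2238*.

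*Zeb2*, the other zinc-finger homeobox repressor, has several annotated starts. Its 5′ end (chr2:45115767-45117658) was called in both FAK-/- libraries, with fold enrichments of 3.13 and 3.77, and in FAK-kd replicate 2, with 4.07. The inner start region, centered 7.52 kb into the gene (chr2:45109194-45110549) and shared with *Zeb2os*, was called in 6 libraries and in neither FAK-nls library. It had 4.40 and 3.60 in FAK-WT, 3.49 and 3.52 in FAK-/-, and 3.71 and 3.51 in FAK-kd, so the 3 lines with calls lay close together. *Prrx1*, a homeodomain factor of mesenchymal cells, had a start region (chr1:163311908-163313867) called in 5 libraries. Its fold enrichment was 3.62 and 3.25 in FAK-WT, 3.32 in FAK-/- replicate 1, 3.25 in FAK-nls replicate 1 and 3.24 in FAK-kd replicate 2.

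**Figure D2:**
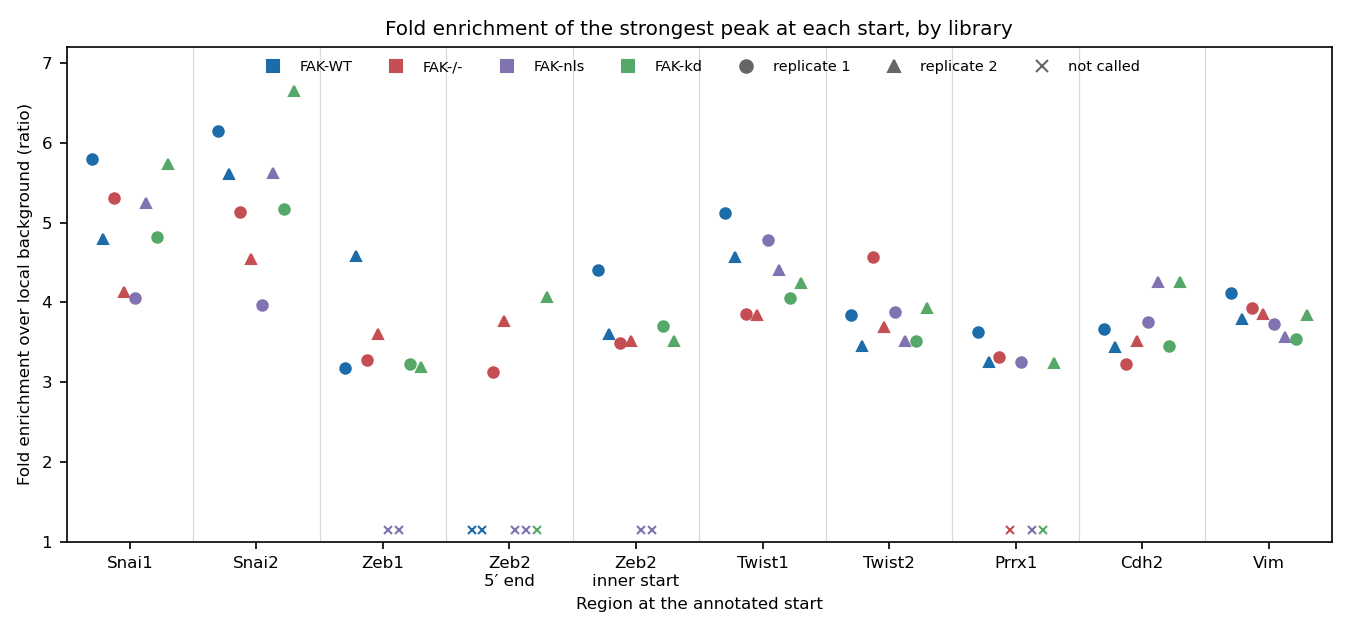
Fold enrichment over the local background (vertical axis, a ratio on a linear scale starting at 1, the level of the background) of the strongest peak in each start region (horizontal axis), 1 symbol for each library, with crosses for libraries without a call. *Cdh1* has no start call and is not drawn. The 6 genes called in every library have no cross, and *Zeb1* and the inner *Zeb2* start lack both FAK-nls libraries.

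The EMT gene region with the best median rank was distal. In *Twist2*, the intronic region centered 15.3 kb into the gene (chr1:91816301-91817175, AP-1 motif shown above) ranked in the top 10.6% and 10.8% in FAK-WT, 8.79% and 4.98% in FAK-/-, 1.48% and 22.5% in FAK-nls, and 5.46% and 4.34% in FAK-kd. Its fold enrichment was 5.73 and 5.17 in FAK-WT, 5.38 and 5.51 in FAK-/-, 7.27 and 5.16 in FAK-nls, and 5.84 and 6.98 in FAK-kd. It was thus a strong peak in every library, with the FAK-nls pair farthest apart. The FAK-nls peaks were 503 and 474 bp long, against 708 to 841 bp in the other lines. In *Prrx1*, the intronic region centered 40.3 kb into the gene (chr1:163273134-163273594, 2 AP-1 motifs) was called in 7 libraries, all but FAK-nls replicate 1. Its fold enrichment was 7.89 and 6.73 in FAK-WT, 8.52 and 5.93 in FAK-/-, 5.57 in FAK-nls replicate 2, and 4.77 and 7.64 in FAK-kd. The largest fold enrichment at any EMT gene, 8.52, stood here, in FAK-/- replicate 1.

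Other genes had distal regions called in most libraries as well. In *Zeb1*, the region 148.6 kb into the gene (chr18:5740134-5740848, intron) was called in every library, with 7.27 and 4.05 in FAK-WT, 6.10 and 4.61 in FAK-/-, 3.71 and 3.71 in FAK-nls, and 5.24 and 6.93 in FAK-kd. The FAK-nls pair was the lowest. In *Cdh2*, the intronic region 68.3 kb into the gene (chr18:16740613-16741268) had 5.52 and 5.22 in FAK-WT, 5.73 and 5.37 in FAK-/-, 5.32 and 3.66 in FAK-nls, and 5.46 and 4.59 in FAK-kd. FAK-nls replicate 2 stood below the other 7 libraries. In *Zeb2*, the intronic region 97.6 kb into the gene (chr2:45019399-45020230) was called in 7 libraries, all but FAK-kd replicate 2, at 3.56 to 6.61.

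*Cdh1* had no strong region anywhere in its window. Its 7 regions lay 5.09 to 62.5 kb into the gene, 6 in introns and 1 over an exon, and their fold enrichments were 3.01 to 3.81. FAK-WT replicate 1 had 4 of them, FAK-WT replicate 2 had 2 and FAK-kd replicate 2 had 3, and the other 5 libraries had none. All were in the weaker part of their list, from the top 69.9% to the top 97.8%. None remained on the 24383 strongest peaks of each library.

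**Figure D3:**
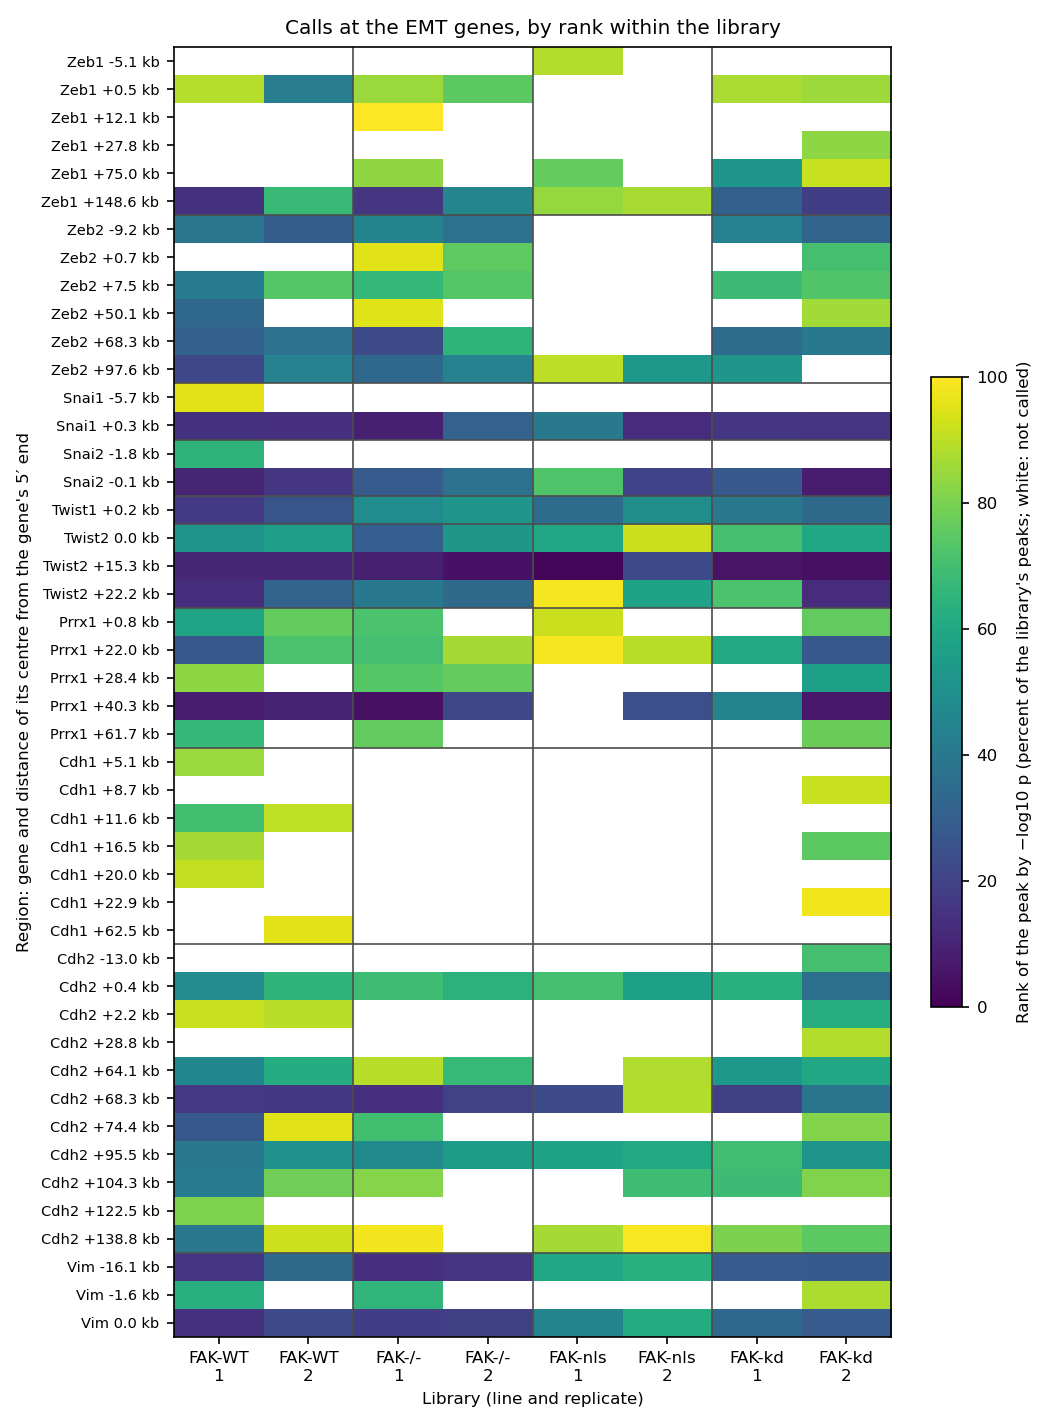
Calls at 46 of the 47 EMT gene regions (rows, labeled by gene and distance of the region's center from the 5′ end in kb, upstream negative) in the 8 libraries (columns), colored by the peak's rank by −log10 p as a percent of the library's peaks, dark for strong and white for not called. The *Twist2* region at +15.3 kb is dark in all columns, the *Cdh1* rows are nearly empty, and 5 of the 6 *Zeb2* rows and the *Zeb1* start are white in both FAK-nls columns.

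FAK-WT was first compared with the other lines by calls. A region is termed WT-only where the FAK-WT libraries both have a call and the 2 of the other line have none, and reverse in the opposite case. Against FAK-/-, 3 of 47 EMT gene regions were WT-only (6.38%, against 4.89% of all regions) and 1 was reverse (2.13%, against 1.18%). Against FAK-nls, 8 were WT-only (17.0%, against 15.3%) and 0 were reverse (against 0.248%). Against FAK-kd, 2 were WT-only (4.26%, against 4.33%) and 1 was reverse (2.13%, against 0.83%). With so few regions these shares were near the background. An exact test on the calls of a pair against a pair of libraries cannot reach 0.05, so none was run. Leaving out a library drops a condition from these definitions, so a count can then stay or rise but cannot fall. Without FAK-WT replicate 2, the WT-only counts were 9 (19.1%, against 20.4% of all regions) for FAK-/-, 18 (38.3%, against 37.6%) for FAK-nls and 7 (14.9%, against 18.1%) for FAK-kd. With FAK-/- replicate 1 left out the first of these counts was 7 (14.9%, against 10.3%), and with FAK-kd replicate 2 left out the last was 5 (10.6%, against 11.8%). The reverse count against FAK-kd was 7 (14.9%, against 8.09%) without FAK-kd replicate 1. That against FAK-/- was 3 (6.38%, against 6.96%) without FAK-/- replicate 2 and 2 (4.26%, against 4.68%) without FAK-WT replicate 1. That against FAK-nls was 2 (4.26%, against 1.47%) without FAK-nls replicate 2. The shares over all regions could likewise only stay or rise.

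Several of the WT-only regions were weak. The *Cdh1* intron region 11.6 kb into the gene (chr8:106614712-106615092) was called in FAK-WT alone, with fold enrichments of 3.81 and 3.27 and ranks at the top 69.9% and 90.4%. It is WT-only in all 3 comparisons, and its calls rest on peaks in the weaker part of the lists. In *Cdh2*, the intron region 2.20 kb into the gene (chr18:16806852-16807242) was called in both FAK-WT libraries, at 2.66 and 2.95, and in FAK-kd replicate 2, at 3.44. It was WT-only against FAK-/- and FAK-nls. Another *Cdh2* intron region, 74.4 kb into the gene (chr18:16734586-16735072), had 6.31 and 3.21 in FAK-WT, 3.96 in FAK-/- replicate 1 and 3.69 in FAK-kd replicate 2, and was WT-only against FAK-nls.

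Of the 8 WT-only regions in the FAK-nls comparison, 4 were called in all 6 libraries of the other 3 lines, which is 8.51% of the 47 EMT gene regions against 4.12% of all regions. These 4 are among the 12 regions of *Zeb1* and *Zeb2*, a grouping made after the calls were seen and given with no test. They were the start of *Zeb1*, the inner start of *Zeb2* and 2 distal *Zeb2* regions. The upstream *Zeb2* region, 9.18 kb before the 5′ end (chr2:45126164-45126984), had 5.45 and 5.56 in FAK-WT, 4.82 and 5.05 in FAK-/-, and 4.87 and 5.74 in FAK-kd. The intronic *Zeb2* region 68.3 kb into the gene (chr2:45048541-45049731) had 5.92 and 5.18 in FAK-WT, 6.09 and 4.04 in FAK-/-, and 5.24 and 5.32 in FAK-kd. These 2 were mid-rank peaks, from the top 23.1% to the top 65.3% of their lists. The reverse regions were the 5′ end of *Zeb2* against FAK-/-, described above, and a *Zeb1* intron region 75.0 kb into the gene (chr18:5666285-5667335) against FAK-kd. The latter had 4.55 and 3.30 in FAK-kd, 3.54 in FAK-/- replicate 1 and 3.91 in FAK-nls replicate 1, and no call in FAK-WT.

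Most of these contrasts were lost when every list was reduced to its 24383 strongest peaks. This left 27 of the 47 EMT gene regions, beside 40182 of all 69399 regions, a similar share. Of the 27, 9 (33.3%) were called in all 8 libraries, against 32.8% of all regions left. Against FAK-/-, 0 were WT-only and 0 reverse, against 3.46% and 3.31% of all regions. Against FAK-nls, the upstream and the 68.3 kb regions of *Zeb2* stayed WT-only (2 regions, 7.41%, against 4.92%), and the *Cdh2* start became reverse (1 region, 3.70%, against 4.29%). Against FAK-kd, 0 were WT-only (against 3.11%), and the *Cdh2* start was again the 1 reverse region (3.70%, against 2.65%). The starts of 4 of the 10 genes, *Snai1*, *Snai2*, *Twist1* and *Vim*, were still called in all 8 libraries, that of *Twist2* in 6 and that of *Cdh2* in 5. Those of *Zeb1* and *Prrx1* were then called in 1 library each, the inner *Zeb2* start in 2, and the *Zeb2* 5′ end in none. The share of all protein-coding genes at this setting is not given here, so these start counts have no background beside them.

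Regions called in all 8 libraries allowed a test of strength. Fold enrichment on the log2 scale was quantile normalized and compared with limma, with Benjamini-Hochberg adjustment over all 17917 such regions. Of the 13 EMT gene regions among them, 0 passed an adjusted p of 0.05 against FAK-/- (0.00558% of all regions), 0 against FAK-nls (0.0%) and 0 against FAK-kd (0.0167%). An F-test over the 4 lines in the same limma fit also called 0 (0.0112% of all regions). At an unadjusted p under 0.05, limma gave 0 EMT gene regions against FAK-/- (6.39% of all regions), 4 of 13 (30.8%) against FAK-nls (15.3% of all regions) and 0 against FAK-kd (5.47% of all regions). The lowest adjusted p of an EMT gene region in limma was 0.841 against FAK-/-, 0.266 against FAK-nls and 0.999 against FAK-kd. The differences, FAK-WT minus the other line, ran from -0.26 to 0.21 against FAK-/-, from -0.37 to 0.47 against FAK-nls and from -0.25 to 0.19 against FAK-kd on the log2 scale. Their medians were -0.05, 0.02 and -0.02, beside -0.0048, -0.011 and -0.0073 over all regions. On this normalized scale and in the same order, the FAK-WT pair and the other pair did not overlap at 9, 6 and 6 of the 13 EMT gene regions. Over all 17917 regions the pairs did not overlap at 7106, 7984 and 5997, so separated pairs were common. The share at the EMT gene regions was the larger in each comparison, most of all against FAK-/-, and this difference was not tested. The pairs of libraries measure only the spread between these cultures of each line.

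The 4 regions under an unadjusted p of 0.05 against FAK-nls lay away from the starts of the EMT genes, and none passed the adjustment. The *Prrx1* intron region 22.0 kb into the gene (chr1:163290958-163292388) had deposited fold enrichments of 5.69 and 3.87 in FAK-WT, 3.94 and 3.50 in FAK-/-, 3.18 and 3.68 in FAK-nls, and 4.29 and 5.87 in FAK-kd. The FAK-nls pair lay below the FAK-WT pair and overlapped the FAK-/- pair. On the normalized log2 scale, this region had a mean of 2.15 in FAK-WT and 1.76 in FAK-nls, a difference of 0.38 (95% interval 0.05 to 0.72, limma adjusted p = 0.266). The *Twist2* region 22.2 kb into the gene (chr1:91823371-91823921), which overlaps the noncoding gene *Gm29101* within 1 kb of its start, had 6.06 and 4.64 in FAK-WT, 4.23 and 4.27 in FAK-/-, 3.17 and 4.12 in FAK-nls, and 3.55 and 6.53 in FAK-kd. Again the FAK-nls pair lay below the FAK-WT pair. Between FAK-WT and FAK-nls it differed by 0.47 (0.05 to 0.88, limma adjusted p = 0.273), and the *Zeb1* region 148.6 kb into the gene by 0.42 (0.04 to 0.80, limma adjusted p = 0.287). The *Twist2* region 15.3 kb into the gene went the other way, by -0.37 (-0.73 to -0.01, limma adjusted p = 0.306).

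At the starts, every 95% interval included 0, and no difference passed the adjustment. *Twist1* differed by 0.21 between FAK-WT and FAK-/- (95% interval -0.09 to 0.50) and by 0.19 between FAK-WT and FAK-kd (-0.11 to 0.48). *Cdh2* differed by -0.27 between FAK-WT and FAK-nls (-0.56 to 0.03, limma adjusted p = 0.368). On the logit of the percentile rank, which was not normalized between libraries, it differed by 0.28 in the other direction. *Vim* differed by -0.08, 0.03 and 0.08 in the 3 comparisons, with every interval within -0.37 and 0.36. *Snai1* differed by 0.06, 0.02 and -0.02, with intervals between -0.35 and 0.38. For *Snai2* the differences were 0.18, 0.15 and -0.02, and for *Twist2* -0.26, -0.10 and -0.04. Of the 18 start differences, 11 changed sign under at least 1 alternative. The 7 that kept it were those of *Twist1* and *Vim* against FAK-/- and FAK-kd, *Snai2* and *Twist2* against FAK-/-, and *Cdh2* against FAK-kd. Over these 6 starts and 3 comparisons, the 95% intervals of the ratio of FAK-WT to the other line reached from 0.679-fold (*Cdh2*, FAK-nls) to 1.43-fold (*Snai2*, FAK-/-).

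**Figure D4:**
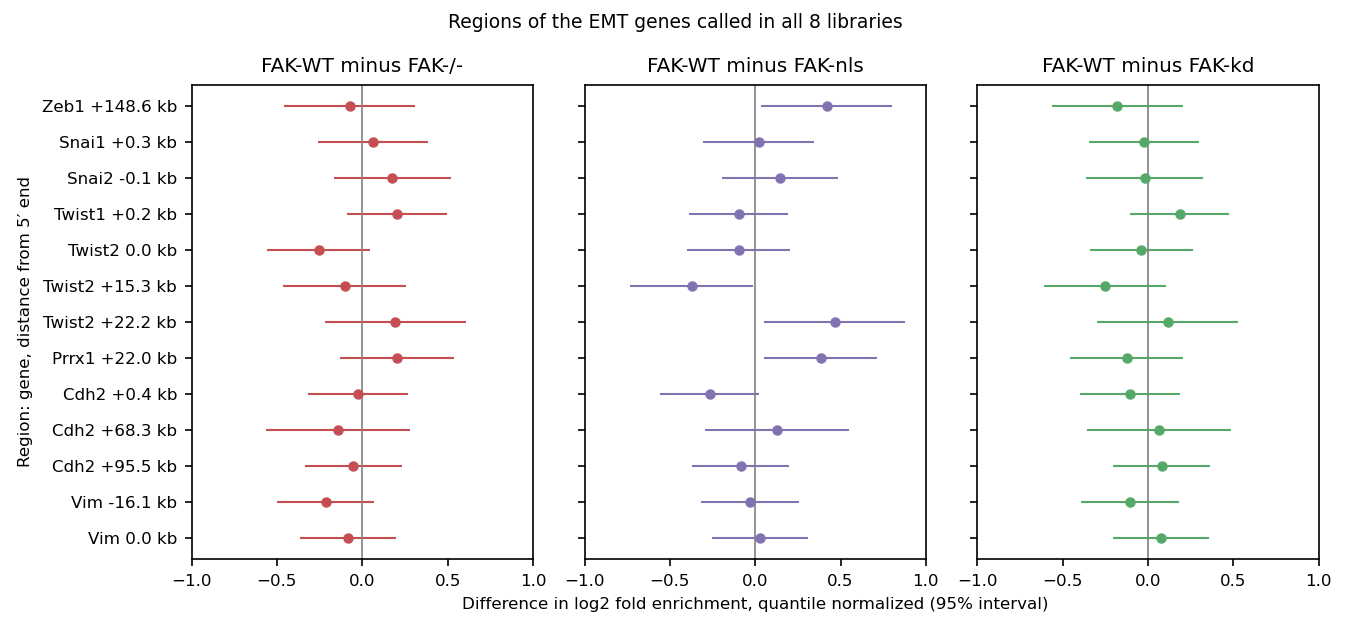
Difference in quantile-normalized log2 fold enrichment between FAK-WT and each other line (horizontal axis, 0 means equal, positive is higher in FAK-WT) at the 13 EMT gene regions called in all 8 libraries (rows), with 95% intervals from limma. The intervals cross 0 except at 4 regions away from the EMT gene starts against FAK-nls, of which none passed the adjustment.

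Related genes of the pathway were read from lists of 16 epithelial and 16 mesenchymal genes. Of the epithelial genes, 12 had no start called in any library, among them *Epcam*, *Dsp* (desmoplakin), *Cldn4* and *Cldn7* (claudins of tight junctions), *Ocln* (occludin), *Esrp1* and *Esrp2* (epithelial splicing regulators) and *Grhl2* (an epithelial transcription factor). *Cldn1* and *Ovol1* had a start called in 1 library each, and *Tjp1* and *Ctnnd1*, which encode junction proteins also made outside epithelia, in all 8. Of the mesenchymal genes, 9 had a start called in all 8 libraries: *Fn1* (fibronectin), *Col1a1* (a collagen), *Sparc*, *S100a4*, *Pdgfrb*, *Axl*, *Foxc2*, *Tcf4* and *Itga5*. *Postn* and *Loxl2* had none, and *Acta2*, *Tagln*, *Thy1*, *Snai3* and *Cdh11* were called in 1 to 7. The shares called in every library were thus 12.5% for the epithelial and 56.3% for the mesenchymal list, beside 41.0% of all protein-coding genes. The shares without a call in any library were 75.0% and 12.5%, beside 41.4%. The lists were chosen with earlier results of these data known, and the difference between them was not tested. Of their 14 and 20 regions called in all 8 libraries, limma called 0 in each comparison. At an unadjusted p under 0.05 limma gave 0 of the 14 epithelial regions in all 3 comparisons. Of the 20 mesenchymal regions it gave 0 against FAK-/- (6.39% of all regions), 1 (5.0%) against FAK-nls (15.3% of all regions) and 1 (5.0%) against FAK-kd (5.47% of all regions).

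The starts of cell type markers, also chosen with earlier results known, were read in the same way. Of 6 keratinocyte markers (*Krt5*, *Krt14*, *Trp63*, *Krt6a*, *Sfn* and *Perp*), 5 (83.3%) had no call in any library, beside 41.4% of all protein-coding genes, and *Krt14* was called in FAK-/- replicate 2 alone. Of the labeled cell type's marker starts, therefore, only that of *Krt14* was in any list. Of 5 fibroblast markers, *Pdgfra* was called in 8 libraries and *Col3a1* in 7, and *Dcn*, *Lum* and *Dpt* (60.0%) in none. The endothelial markers were called in at most 2 libraries, *Tek* in none. *Mitf* and *Pmel* among the melanocyte markers were called in all 8, while *Tyr*, *Dct* and *Mlana* were called in none. No expression was measured here, and an accessible start is not a measure of transcription.

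**Figure D5:**
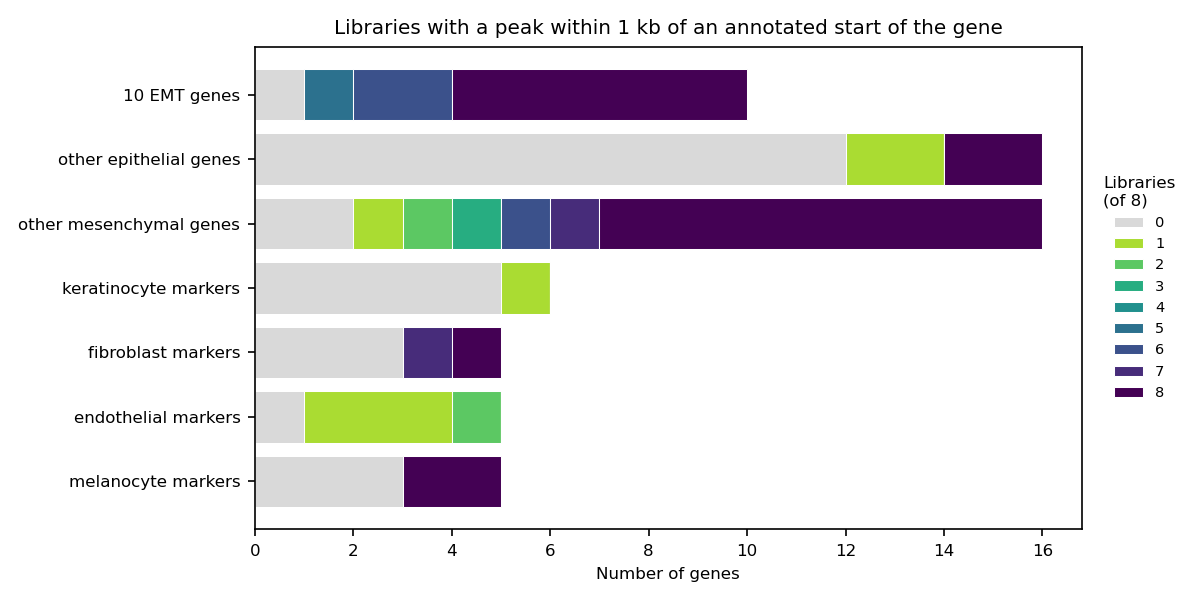
Number of genes (horizontal axis) by the number of libraries, 0 to 8, with a peak within 1 kb of an annotated start, for each gene list (rows). Bars of the mesenchymal list and of the EMT genes are mostly dark (8 libraries), and those of the epithelial and keratinocyte lists mostly gray (0 libraries).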

How the data were processed

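ATAC-seq peak lists of 8 libraries were used, 2 for each of 4 lines, grouped by their labels. The authors aligned reads to mm10 with the bcbio pipeline and called broad peaks in each library separately with MACS2 (version 2.1.1 per the submitters' processing notes), shifting and extending the reads as suits transposase insertions. The lists hold no read counts, and the read totals that the study gives for its libraries were not used here. For each peak the deposited lists give its position and length and 4 values averaged over the peak. The pileup is coverage signal, the −log10 p and −log10 q values are the authors' test against the local background, and the fold enrichment is the deposited ratio to that background. The −log10 q values go down to 1.00, so 0.784 to 3.83% of the peaks of a library have q above 0.05.

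Peaks outside chromosomes 1 to 19, X and Y were left out (15 to 25 in a library), and every kept peak ends within the GRCm38 chromosome lengths. Peaks were merged and assigned to genes and annotated starts of that assembly from GENCODE, in Python 3.11.15. No pair of libraries shared an identical peak. Strength was compared with limma 3.58.1 in R 4.3.3 on log2 fold enrichment, with 4 line means in 1 fit over all libraries, two-sided, after a test on simulated data. With 2 libraries in a line, p-values measure the spread between these cultures. The count test of the study could not be run on lists without counts.

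The genes, their windows, the other gene lists and the markers were chosen with earlier results of these data known. All 10 EMT genes were named. Their regions were described one by one where they lay at a start, ranked best in the gene, separated FAK-WT from another line by calls, or passed the limma threshold. The 4 regions at an unadjusted p under 0.05 were named after their values were seen. Alternatives tried were equal numbers of peaks, a minimum −log10 q of 3, 50% coverage, 5 kb upstream, peaks set to 500 bp, other scales and normalizations, a replicate block, and each library left out. The columns of the lists were otherwise used as deposited. The details of 1 EMT gene region and of 1 list of markers are not reported here.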

Additional observations from a re-analysis of the deposited data

How the results depend on the processing

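The read totals that the study gives for its libraries were not used here, so the part of depth in the calls was not tested, and counts of called regions depended on the length of the lists. The counts of EMT gene regions are given as WT-only then reverse, for FAK-/- first, FAK-nls next and FAK-kd last, and were 3, 1, 8, 0, 2 and 1. With equal numbers of strongest peaks they were 0, 0, 2, 1, 0 and 1. A minimum −log10 q of 3 left 1 WT-only and 0 reverse regions against FAK-/- and 0 and 0 against FAK-kd. Requiring 50% of a region to be covered gave 5 WT-only and 0 reverse regions against FAK-/- and 0 reverse regions against FAK-kd, and peaks set to 500 bp gave 0 reverse regions against FAK-/-. Leaving out in turn each of the 4 libraries of a comparison gave 3 to 9, 1 to 3, 9 to 18, 0 to 2, 3 to 7 and 1 to 7. Leaving a library out can only keep or raise such a count. The other settings kept these counts within 1.5 times.

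Among the regions called in all 8 libraries, 0 EMT gene regions passed in the 4 limma tests under each alternative but one. On the logit of the percentile rank, 1 passed against FAK-nls, the *Prrx1* region 22.0 kb into the gene (limma adjusted p = 0.0495). In that comparison 879 of 17917 regions passed, 865 of them higher in FAK-WT. This scale was not normalized between libraries, and the percentile of a peak depends on the length of its list. On log2 pileup, 34, 213 and 19 regions passed against FAK-/-, FAK-nls and FAK-kd, none of them at an EMT gene. The cause was not tested. With the replicate block, 0 EMT gene regions passed, the lowest limma adjusted p being 0.245. After quantile normalization, deviations of libraries with the same number correlated at -0.20 to 0.06 over the regions called in all 8 libraries. These values gave no sign of pairing by number. Normalization removes shifts over a whole library, so a shared preparation could go unseen.

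None of the 18 differences at starts was called in any of 186 repeats, and 11 of them, all within 0.27 of 0, changed sign in 26. On log2 pileup, *Snai1* gave -0.11 against FAK-/- and -0.21 against FAK-nls, *Snai2* 0.087 against FAK-kd, *Twist1* 0.27 against FAK-nls, *Twist2* 0.035 against FAK-nls and 0.22 against FAK-kd, and *Cdh2* 0.072 against FAK-/-. On the logit of the percentile rank, *Snai1* gave 0.11 and *Snai2* 0.21 against FAK-kd, *Twist1* 1.00 against FAK-nls, *Twist2* 1.28 against FAK-nls and 0.47 against FAK-kd, and *Cdh2* 0.42 against FAK-/- and 0.28 against FAK-nls. The logit values were not normalized between libraries. With median centring, *Vim* gave -0.06 against FAK-nls. With single libraries left out, the FAK-/- difference of *Snai1* ran from -0.067 to 0.186, its FAK-nls difference from -0.16 to 0.20, and its FAK-kd difference from -0.05 to 0.007. Those of *Snai2* ran from -0.11 to 0.40 for FAK-nls, while for FAK-kd they ran from -0.078 to 0.039. Leaving out libraries also moved *Twist1* between -0.20 and 0.003, *Twist2* between -0.221 and 0.024 and *Vim* between -0.04 and 0.10 against FAK-nls, and *Cdh2* between -0.098 and 0.051 against FAK-/-. The cause was not tested.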
